A study of Mus musculus with 51 samples.

Results

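The collagen genes of the mouse were followed across gonads and Sertoli cells in which the transcription factor gene Dmrt1 was intact, deleted or carried the R111G change in its DNA-binding domain. Members were all rows of the gene count table whose symbol has the form Col, a number, the letter a and a number, which gave 44 of 55401 rows. They fall into 8 structural classes: 11 fibrillar chains, 6 chains of basement membrane collagen IV, 6 of beaded filament collagen VI, 3 of the hexagonal network collagens VIII and X, 9 FACIT chains (collagens that sit on fibrils and have interrupted triple helices), 4 transmembrane chains, 2 multiplexins (Col15a1 and Col18a1) and 3 others (Col7a1, Col26a1 and Col28a1). The rule used the symbols alone and no measured value, although members and gene lists were chosen with earlier results of these data known.

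Poly(A) RNA was sequenced with a stranded protocol from 10 groups of 3 libraries each, all on a mixed 129Sv and C57Bl/6J background. At postnatal day 28 (P28) the gonads were wild-type (Dmrt1+/+), Dmrt1+/-, Dmrt1-/- or R111G/+. At P3 they were Dmrt1+/-, Dmrt1-/-, R111G/- (the altered allele over the null allele) or R111G/+. At P7 the libraries came from Sertoli cells, the supporting cells of the seminiferous tubules, in which a Dhh-Cre transgene deletes both alleles of Dmrt1 f/f and switches on the reporter CAG-Stopflox-tdTomato. Their controls were Dmrt1 f/+ with the same Dhh-Cre and CAG-Stopflox-tdTomato transgenes by their genotype label, which leaves them 1 intact allele, although their titles give +/+. No wild-type gonads were analysed at P3, where Dmrt1+/- served as the reference. The R111G mouse line descends from 1 founder, and the P7 cells of each library were pooled from more than 1 mouse and enriched by removing other cells with beads, so they were not a sorted pure population. The labels do not say whether the 3 gonad libraries of a group came from separate animals, and the p-values then measure only the spread between these libraries.

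Library totals lay between 5043838 and 12792811 counts with a median of 8776697. Dmrt1 itself averaged 44.2 CPM (counts scaled to library size) in P28 Dmrt1+/- and 0.353 in P28 Dmrt1-/-, 68.0 and 2.79 in the same genotypes at P3, and 201 against 27.6 in control and deleted Sertoli cells. The third P28 Dmrt1+/- library had a summed spermatid marker level of 4671 CPM, against up to 21697 in its group, and the second P7 control library had a summed fibroblast marker level of 203 CPM against 38.6 and 27.5 in the other controls. Both stood apart from their groups, and counts of called members are also given without them. The second P7 deleted library was likewise the highest of its group in fibroblast markers, at 723 CPM against 385 and 308.

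Collagens are mostly secreted proteins whose chains wind around each other into a triple helix. Fibrillar collagens such as types I, III and V form the rope-like fibrils of connective tissue and are made chiefly by fibroblasts and other stromal cells, whereas collagen IV forms the sheet of basement membranes, including the one on which Sertoli cells and peritubular myoid cells of the testis rest. FACIT collagens decorate fibrils, and collagens II, IX and XI are best known from cartilage.

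Many collagen genes lie beside one another and may share a start region. Col4a1 and Col4a2, which encode the ubiquitous basement membrane chains and face away from each other on chromosome 8, overlap by 22 bases at their first bases in the gene annotation. Col4a3 and Col4a4 on chromosome 1 are separated by 71 bases and Col4a5 and Col4a6 on chromosome X by 1308. Col3a1 and Col5a2 lie 24614 bases apart on chromosome 1. The sequences below are the start regions of the pairs and chains that the results turn on, read from RefSeq's GRCm38.p6 table or at the GRCm38 position of the overlap. They are written 5′ to 3′ on the plus strand. Col1a2 (chr6:4505368-4505617) and Col3a1 (chr1:45311288-45311537), the fibrillar chains called higher in both P28 mutants by the main edgeR fit, are shown as the 250 bases before the RefSeq start of transcription, and the shared bases of Col4a1 and Col4a2 are at chr8:11312805-11312826. In R111G/+ both calls depended on the libraries and the scaling used, as given below. The gene annotation used for positions starts Col1a2 further upstream, at position 4504814, so by that annotation the Col1a2 stretch lies inside the gene. Capitals mark a match to CCAAT in Col1a2 and to TATAAA in Col3a1.
Col1a2: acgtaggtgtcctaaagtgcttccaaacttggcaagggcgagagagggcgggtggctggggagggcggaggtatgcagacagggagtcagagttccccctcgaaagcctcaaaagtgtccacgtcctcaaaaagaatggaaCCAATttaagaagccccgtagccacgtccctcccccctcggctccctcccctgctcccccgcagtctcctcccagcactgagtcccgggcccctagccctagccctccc
Col3a1: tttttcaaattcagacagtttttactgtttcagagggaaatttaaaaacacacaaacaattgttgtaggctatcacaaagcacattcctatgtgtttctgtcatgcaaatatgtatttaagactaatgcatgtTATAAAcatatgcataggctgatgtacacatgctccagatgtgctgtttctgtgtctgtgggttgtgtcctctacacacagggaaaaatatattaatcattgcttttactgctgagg
Col4a1 and Col4a2: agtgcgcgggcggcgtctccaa

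Of the 44 members, 35 had an entry in the promoter table, with 38 promoters. Each entry held 300 bases, 250 before to 50 after the start, and only the 250 before the start were searched. A match to CCAAT on either strand was present in 34.2% of the collagen promoters and in 33.8% of all promoters. A match to TATAAA was present in 13.2% and 12.4%. The shares therefore lay close to those of all promoters. A match is a description of letters and not of a bound site.

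Collagen RNA was a large part of the P3 gonad transcriptome and a small part of that of the P28 testis. The 44 genes took 1.29% ± 0.175 (SD, n = 3) of all counts in P3 Dmrt1+/- gonads, 0.172% ± 0.0265 (n = 3) in P28 Dmrt1+/- gonads and 0.0727% ± 0.0404 (n = 3) in control Sertoli cells. At P28 the share was 0.690% ± 0.0990 (n = 3) in Dmrt1-/- gonads, 0.298% ± 0.0737 in R111G/+ gonads and 0.119% ± 0.0178 in wild-type gonads (n = 3 each). The 3 Dmrt1-/- libraries lay above all 9 other P28 libraries. Within P3 the 4 genotypes averaged from 1.16% to 1.36%.

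**Figure D1:**
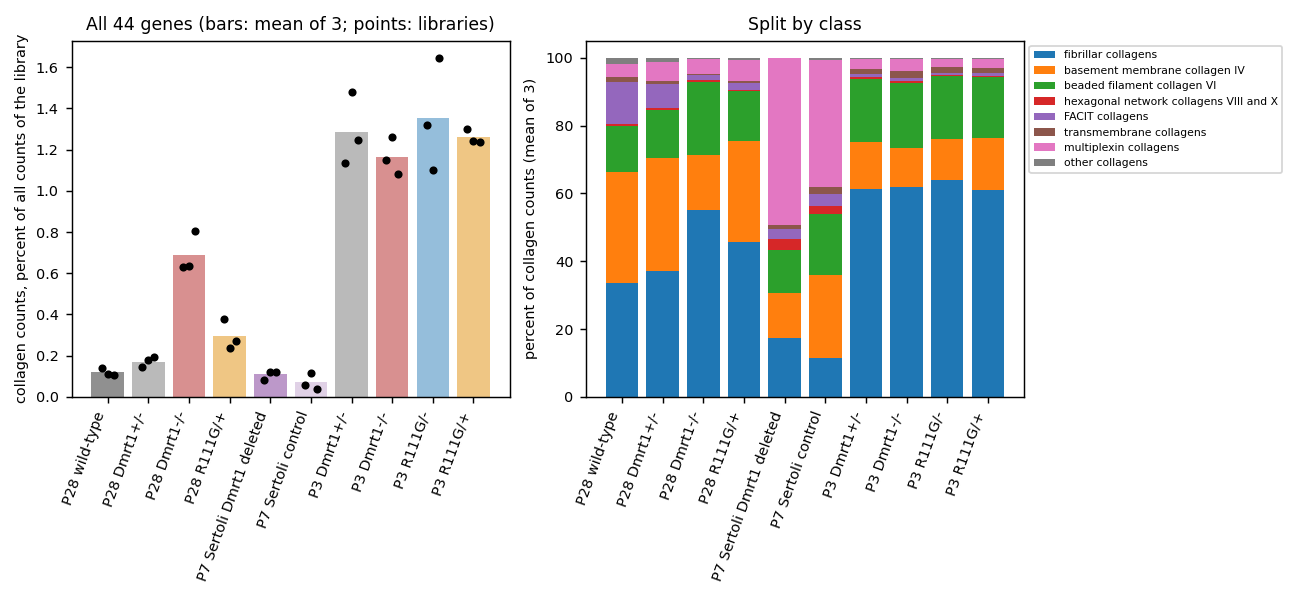
The left panel plots the percentage of all gene counts that fell in the 44 collagen genes for the 10 groups (bars, mean of 3 libraries; points, libraries), and the right panel splits these counts by structural class (percentage of collagen counts, mean of 3). Fibrillar collagens made up 37.2% of collagen counts in P28 Dmrt1+/- and 55.0% in P28 Dmrt1-/- gonads, while collagen XV and XVIII made up 37.5% and 49.0% in control and deleted Sertoli cells.

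The makeup of the collagen RNA differed between groups as well. Fibrillar chains held 33.7% of the collagen counts in wild-type P28 gonads, 37.2% in Dmrt1+/-, 55.0% in Dmrt1-/- and 45.7% in R111G/+, and between 60.9% and 63.9% in the P3 groups. Collagen IV held 33.1% in P28 Dmrt1+/- and 16.3% in P28 Dmrt1-/- gonads. FACIT chains held 12.6% in wild-type, 6.97% in Dmrt1+/-, 1.37% in Dmrt1-/- and 1.98% in R111G/+ gonads at P28. In these shares an increase of one class lowers the share of the others.

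Per kilobase of exon the leading chains were the same few in every gonad group. In P28 Dmrt1+/- gonads the order was Col6a1 (32.1 CPM per kilobase), Col3a1 (26.4), Col1a1 (23.4) and Col4a1 (20.9), and each overlapped its neighbour in this order between libraries. In P28 Dmrt1-/- gonads Col3a1 led with 180.5 CPM per kilobase, above Col6a1 (156) in every library, whereas Col6a1 and Col1a1 (144) overlapped. In P3 Dmrt1+/- gonads Col1a1 led with 404 CPM per kilobase, followed by Col3a1 with 250.4. Sertoli cells differed from the gonads, with Col18a1 in front at 73.7 CPM per kilobase in deleted and 33.8 in control cells, and deleted cells had no overlap between Col18a1 and the next chain, Col6a1 (18.4). At the other end, Col10a1, a chain of growth plate cartilage, had 2 counts over all 30 libraries.

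**Figure D2:**
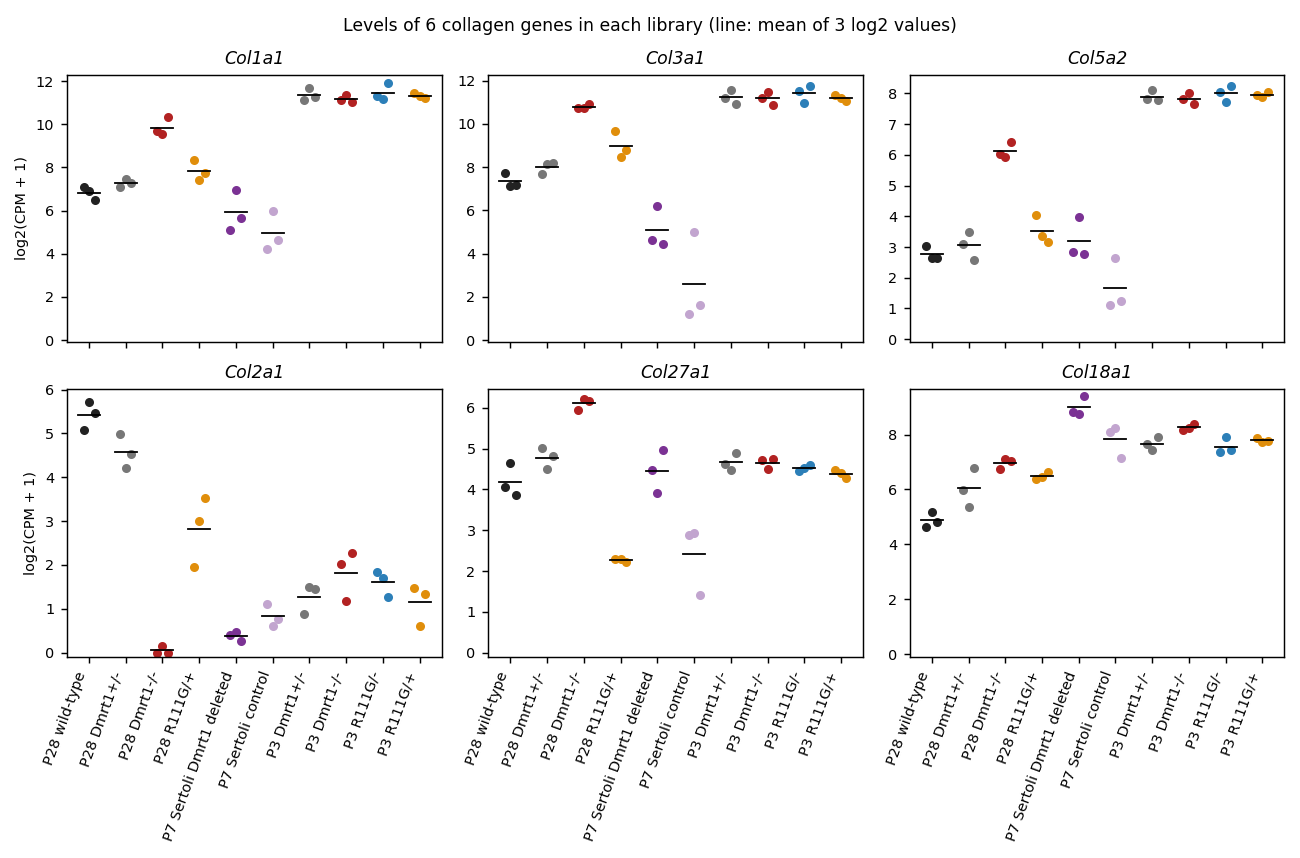
Levels of Col1a1, Col3a1, Col5a2, Col2a1, Col27a1 and Col18a1 in each of the 30 libraries on a log2(CPM + 1) scale, with the groups along the horizontal axis; points are libraries and lines the mean of 3 log2 values. The fibrillar chains Col1a1, Col3a1 and Col5a2 sit highest at P3 and higher in P28 Dmrt1-/- than in the other P28 groups, Col2a1 is near 0 in P28 Dmrt1-/-, and Col27a1 is lowest among the gonads in P28 R111G/+.

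Loss of Dmrt1 was first compared with Dmrt1+/- at P28, an age at which the null XY gonad is known to take on features of an ovary. Several classes rose together in the Dmrt1-/- gonads: most fibrillar chains, the principal chains of collagen VI, both tested chains of collagen VIII, and the basement membrane pair Col4a1 and Col4a2. Col2a1, the main cartilage chain, was almost lost, and 2 other fibrillar chains, 4 of 8 tested FACIT chains and Col28a1 also fell. Of the 42 members that passed the filter on low counts, 19 rose and 8 fell by more than 2-fold at an adjusted p below 0.05 (edgeR quasi-likelihood test, Benjamini-Hochberg adjustment over all genes), where 19.8% of all tested genes rose and 38.7% fell. The median log2 difference was 0.94 over the members and -0.28 over all tested genes. Without the third Dmrt1+/- library, which had few spermatid transcripts, 22 members rose and 8 fell, where 21.4% and 39.1% of all tested genes did.

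Among the fibrillar chains 8 of 11 rose and 3 fell. Col1a1, the main chain of collagen I, stood at 134, 175 and 152 CPM in Dmrt1+/- and at 819, 735 and 1287 CPM in Dmrt1-/- libraries. All null libraries lay above all heterozygous ones, and the log2 difference was 2.63 ± 0.28 (SE; adjusted p = 1.9e-06). Its partner Col1a2 differed by 2.04 on the log2 scale. Col3a1, the chain of the finer collagen III fibrils, stood at 207, 278 and 294 CPM against 1706, 1699 and 1909.5 CPM, again without overlap, a log2 difference of 2.77 ± 0.29 (adjusted p = 1.8e-06). Col5a2, a chain of the collagen V that helps start fibrils, showed the largest rise among the tested members. Col9a2 had too few counts to be tested here, but passed without the third Dmrt1+/- library at 4.64, above Col6a6 (3.10) and Col5a2 (2.99) in that fit. The levels of Col5a2 were 7.56, 10.3 and 4.98 CPM in Dmrt1+/- and 64.7, 59.4 and 83.8 CPM in Dmrt1-/-. The lowest null library was several times the highest heterozygous one, and the log2 difference was 3.19 ± 0.31 (adjusted p = 7.7e-07). Col11a1, Col5a3, Col5a1 and Col27a1 also rose, by log2 differences between 1.35 and 2.60.

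The other fibrillar chains fell. Col2a1, the main collagen of cartilage, stood at 30.5, 17.4 and 22.0 CPM in Dmrt1+/- and at 0, 0.106 and 0 CPM in Dmrt1-/-. That is 725 counts against 1 in the summed libraries, a ratio of 631 with a 95% counting interval from 113 to 24969, and the fall passed the test (adjusted p = 1.7e-07). The wild-type libraries held 32.6, 51.8 and 42.9 CPM. Cartilage itself is not part of the gonad. Of 5 tested cartilage genes other than collagens 2 rose and 1 fell, where 19.8% of all tested genes rose and 38.7% fell. The summed level of cartilage markers was 195 to 308 CPM in Dmrt1+/- and 118 to 149 CPM in Dmrt1-/-. Col24a1 (log2 difference -1.85) and Col11a2 (-1.10) were the other fibrillar chains that fell.

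Collagen VI forms beaded microfilaments around cells, and 4 of its 6 chains rose while none fell. Col6a2 stood at 39.7, 72.6 and 60.8 CPM in Dmrt1+/- and at 393, 432 and 476 CPM in Dmrt1-/-. Col6a6 stood at 3.59, 4.15 and 5.61 CPM against 34.9, 30.3 and 32.5 CPM. Neither chain overlapped between the groups, and the log2 differences were 2.91 ± 0.30 (adjusted p = 1.3e-06) and 2.86 ± 0.24 (adjusted p = 2.3e-07). The log2 differences of Col6a1 and Col6a3, which also rose, were 2.28 and 2.70. Col6a4 (0.98) and Col6a5 (0.60) did not pass both thresholds. Both tested chains of the network collagen VIII rose, Col8a1 by 2.15 and Col8a2 by 1.99.

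None of the 8 tested FACIT chains rose and 4 fell, where 38.7% of all tested genes fell. Col14a1 and Col12a1 had positive differences that did not pass (0.78 and 0.58). Col9a1, a chain of cartilage collagen IX, stood at 3.12, 2.58 and 1.42 CPM in Dmrt1+/- and 0.116, 0 and 0 CPM in Dmrt1-/-, which is 72 counts against 1 (ratio 62.7, counting interval 10.9 to 2510). Col19a1, a scarce FACIT collagen, stood at 4.35, 3.48 and 2.67 CPM against 0.347, 0.106 and 0.171 CPM. Its groups did not overlap and its log2 difference was -4.02 ± 0.64 (adjusted p = 7.4e-05). Col9a3 fell by 2.22 and Col20a1 by 1.82 on the log2 scale. Col9a1 and Col19a1 are neighbours on chromosome 1, with 9205 bases between them. Of the remaining classes, Col15a1, a multiplexin of basement membrane zones, rose by 2.42, the transmembrane chains Col25a1 and Col13a1 by 1.35 and 1.06, and Col28a1 fell by 1.74.

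**Figure D3:**
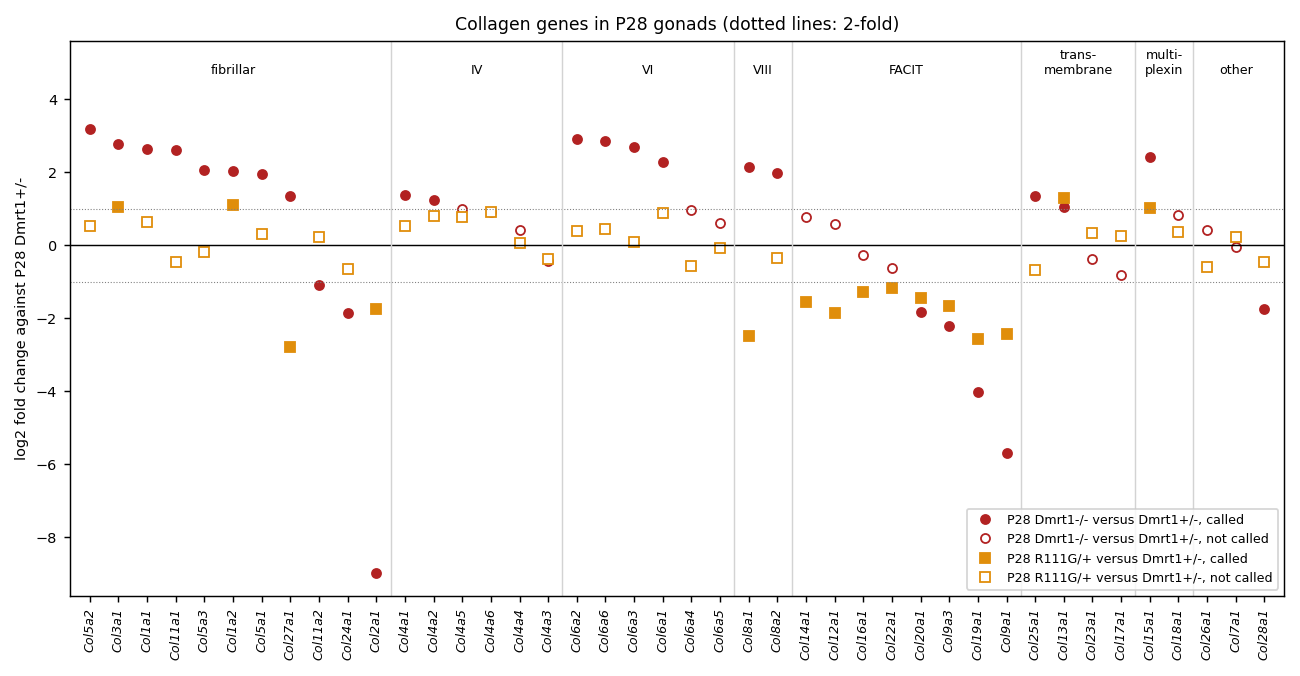
Log2 fold changes against P28 Dmrt1+/- for the 42 tested collagen genes, grouped by class (circles, Dmrt1-/-; squares, R111G/+; filled symbols passed both thresholds; dotted lines mark 2-fold). In Dmrt1-/- 8 of 11 fibrillar chains are filled on the higher side, and in R111G/+ all 8 tested FACIT chains are filled on the lower side.

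Other tissue markers moved with the null genotype. Of 12 fibroblast markers 7 rose and none fell, where 19.8% of all tested genes rose and 38.7% fell. Their summed level was 671 to 1093 CPM in Dmrt1+/- and 2309 to 2708 CPM in Dmrt1-/-. Lum and Dcn, which encode proteoglycans bound to collagen fibrils, differed by 4.68 and 2.32 on the log2 scale. Endothelial markers summed to 94.6 to 123 CPM against 705 to 804 CPM, with 12 of 13 higher. Spermatid markers, at 4671 to 21697 CPM in Dmrt1+/-, summed to 29.4 to 35.7 CPM. Leydig markers summed to 1779 to 3227 CPM in Dmrt1+/- and 10593 to 12526 CPM in Dmrt1-/-, and markers of granulosa cells, the supporting cells of the ovary, to 239 to 420.2 CPM and 1003 to 1281 CPM. None of these lists overlapped between the genotypes. In whole gonads fewer cells of a type and less RNA per cell cannot be told apart, and the part of these cell types in the collagen values was not tested. When libraries were scaled to the markers of peritubular myoid cells, fibroblasts, endothelium and macrophages instead of to all genes, the median of all tested genes moved from -0.28 to -1.67, and 8 members rose and 14 fell, where 4.17% of all tested genes rose and 62.5% fell. The 8 were Col1a1 (1.28 on the log2 scale), Col3a1 (1.44), Col5a2 (1.85), Col11a1 (1.30), Col6a2 (1.62), Col6a3 (1.35), Col6a6 (1.53) and Col15a1 (1.06).

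Genes that build, cross-link and remove collagen rose as well. Of 19 genes for collagen-modifying enzymes and chaperones 15 rose and none fell, where 19.8% of all tested genes rose and 38.7% fell. Plod2, a lysyl hydroxylase that prepares chains for cross-linking, averaged 119 CPM in Dmrt1+/- and 1170 CPM in Dmrt1-/- (log2 difference 3.29), and Colgalt2, which adds galactose to hydroxylysine, averaged 1.06 and 59.2 CPM (5.78). Of 14 procollagen proteinases and cross-linking enzymes 8 rose and 2 fell. Among them the cross-linking oxidase Lox averaged 9.91 and 102 CPM (3.37) and Bmp1, the procollagen C-proteinase, 13.1 and 113 CPM (3.11). Of 9 collagen receptors 4 rose and none fell, among them the collagen-internalising receptor Mrc2 (3.03) and the kinase Ddr2 (1.79). Of 7 collagen-degrading enzymes and inhibitors 5 rose and none fell, among them the gelatinase Mmp2 (3.05) and the protease Ctsk (2.60).

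Against wild-type gonads the same null libraries gave a similar count, 21 higher and 7 lower of 42, where 26.1% of all tested genes rose and 40.5% fell. This comparison shares its null libraries with the previous one, so its values are set beside it and are not a second test. Col6a6 had the largest rise, from 1.5, 1.84 and 0.995 CPM in wild-type libraries (log2 difference 4.51). Col5a2 differed by 3.57 and Col6a2 by 3.52. The largest falls were those of Col2a1, with 951 counts against 1, Col9a1 with 74 against 1, and Col19a1 (-4.04). Scaled to the somatic markers, 10 members rose and 18 fell, where 4.92% of all tested genes rose and 66.2% fell.

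Heterozygous and wild-type gonads at P28 were compared to see whether 1 null allele altered collagen levels. In edgeR none of the 42 members passed, where 0% of all tested genes did in either direction. At an unadjusted p below 0.05, 9 members were higher and 1 was lower, and 18% of all tested genes had such a p. DESeq2 called 1 member higher, Col18a1, whose levels were 23.7, 35.3 and 27.4 CPM in wild-type and 62.2, 40.2 and 109 CPM in Dmrt1+/- libraries. These groups did not overlap, and the highest value came from the heterozygous library with few spermatid transcripts. DESeq2 gave a log2 difference of 1.24 (adjusted p = 0.0142), and called 0.0907% of all tested genes higher. Without that library edgeR gave 0.85 (adjusted p = 0.61) and again called no member.

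The R111G allele was examined beside 1 normal allele at P28. In R111G/+ gonads Col1a2, Col3a1, Col13a1 and Col15a1 rose, and every tested FACIT chain fell. Of 42 members 4 rose and 11 fell, where 6.72% of all tested genes rose and 28.1% fell. The median log2 difference was 0.00 over the members and -0.17 over all tested genes. Scaled to the somatic markers, none rose and 19 fell, where 0.263% of all tested genes rose and 52.2% fell, with their median at -1.19. Scaled by library size alone, 8 rose and 9 fell, where 13.3% and 24% of all tested genes did.

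Col3a1 stood at 801, 357 and 447 CPM in R111G/+ against 207, 278 and 294 CPM in Dmrt1+/-. The groups did not overlap, but the first R111G/+ library was far above the others, and the log2 difference was 1.06 ± 0.28 (adjusted p = 0.0066). Col1a2 stood at 588, 347 and 316 CPM against 151, 232 and 206 CPM (log2 difference 1.10 ± 0.27, adjusted p = 0.0048). Without the first R111G/+ library these differences were 0.80 and 0.93, and without the first Dmrt1+/- library 0.91 and 0.94, both under 2-fold, and the number of higher members then fell to 2 and to 1. Of all tested genes 6.52% and 3.64% were higher in those fits. Col13a1, a transmembrane chain, stood at 3.93, 3.51 and 3.47 CPM against 0.946, 1.46 and 2.05 CPM. Its groups were well separated, with a log2 difference of 1.30 ± 0.34 (adjusted p = 0.0063). Col15a1 rose by 1.03. Col1a1, at 319.9, 172 and 214 CPM against 134, 175 and 152 CPM, overlapped between the groups and did not pass (0.63, adjusted p = 0.061).

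The fall of Col27a1 set R111G/+ apart from the null genotype. This fibrillar chain of developing cartilage and other tissues stood at 3.93, 3.93 and 3.7 CPM in R111G/+, 31.5, 21.8 and 27.1 CPM in Dmrt1+/-, and 60.9, 73.1 and 70.9 CPM in Dmrt1-/-. The R111G/+ libraries were close to one another and below every other gonad library, while the null libraries were above every other. The log2 difference was -2.77 ± 0.23 against Dmrt1+/- (adjusted p = 2.4e-05) and -4.13 against Dmrt1-/-. Col8a1 followed the same order, with 0.767, 0.842 and 0.231 CPM in R111G/+, 3.69, 4.49 and 2.49 CPM in Dmrt1+/- and 20.3, 9.14 and 17.8 CPM in Dmrt1-/-. It fell by 2.49 ± 0.46 on the log2 scale in R111G/+ (adjusted p = 0.00077). Col19a1, at 0.0958, 0.561 and 1 CPM, was below all 3 heterozygous libraries and had a log2 difference of -2.56 ± 0.53 (adjusted p = 0.0016).

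All 8 tested FACIT chains fell in R111G/+ against Dmrt1+/-, by log2 differences from -1.18 (Col22a1) to -2.56 (Col19a1). Col12a1, a FACIT chain of tendon and other dense tissue, stood at 1.53, 0.912 and 1.62 CPM against 6.15, 5.05 and 3.65 CPM. It did not overlap and differed by -1.85 on the log2 scale. Col12a1 and Col14a1 were not among the 4 FACIT chains that fell in the null. Col2a1 fell less deeply than in the null, with 2.88, 7.02 and 10.5 CPM and a log2 difference of -1.74. Spermatid markers summed to 635 to 873 CPM in R111G/+, below every Dmrt1+/- library, and their part in these falls was not tested. Leaving out the third Dmrt1+/- library, which had the fewest spermatid transcripts of its group, gave 5 higher and 11 lower members, where 8.34% and 30.1% of all tested genes were so.

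Set directly against Dmrt1-/-, R111G/+ gonads had 4 members higher and 20 lower, where 27.6% of all tested genes were higher and 10.1% lower. Col8a1 (-4.64), Col27a1 (-4.13) and Col11a1 (-3.05) were furthest below. Col11a1 stood at 2.2, 1.96 and 1.85 CPM in R111G/+ and 13.9, 19.1 and 17.5 CPM in Dmrt1-/-. Col2a1 was higher in R111G/+ (266 counts against 1), as were Col9a1 (16 against 1), Col11a2 at 3.35, 5.96 and 5.86 CPM against 1.62, 2.23 and 2.31 CPM, and Col17a1 at 3.64, 3.86 and 3.55 CPM against 1.27, 2.13 and 1.97 CPM. None of the 6 collagen IV chains passed in edgeR. Without the first R111G/+ library 7 members were higher instead of 4, where 32.1% of all tested genes were higher.

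The group means of R111G/+ were placed among the other genotypes for the 27 members called in the null. Of the 19 members that rose in the null, 12 had an R111G/+ mean between those of Dmrt1+/- and Dmrt1-/-, 6 were below both (Col5a3, Col8a1, Col8a2, Col11a1, Col25a1 and Col27a1) and Col13a1 was above both. Of the 8 that fell in the null, 7 lay between and Col11a2 was above both. These positions are descriptions of means. Fibroblast markers summed to 1238 to 2516 CPM in R111G/+ and macrophage markers to 935 to 2334 CPM against 581 to 914 CPM in Dmrt1+/-, while endothelial markers at 106 to 184 CPM overlapped with Dmrt1+/-. Leydig markers, at 3819.6 to 7812 CPM, lay above every Dmrt1+/- library. The part of these cells in the collagen values was not tested. Of the collagen-modifying genes 5 of 19 rose in R111G/+, where 6.72% of all tested genes rose and 28.1% fell. One of these 5 was Crtap (1.56), a partner of the prolyl 3-hydroxylases. Of the 14 proteinases and cross-linking enzymes only Pcolce2, which enhances procollagen cleavage, passed, with a fall of 2.10.

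Collagen IV was traced chain by chain, since its 6 genes form head-to-head pairs and different triple helices. In P28 gonads the ubiquitous pair passed in the null against Dmrt1+/-, and the other 4 chains did not pass both thresholds there. Col4a1 stood at 129.6, 182 and 155 CPM in Dmrt1+/-, 417, 384 and 405 CPM in Dmrt1-/- and 288, 176 and 206 CPM in R111G/+. The null libraries were above all others, with a log2 difference of 1.37 ± 0.21 (adjusted p = 5.5e-05). Col4a2 stood at 106, 145 and 134 CPM, 275, 299 and 337 CPM, and 282, 169 and 211 CPM in the same groups. It rose by 1.24 ± 0.21 in the null (adjusted p = 0.00014), and scaled to the somatic markers the differences of Col4a1 and Col4a2 were 0.04 and -0.09.

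The pair Col4a3 and Col4a4, chains of the kidney and testis basement membranes, did not pass both thresholds. Col4a3 stood at 119, 132 and 105 CPM in Dmrt1+/- and 79.0, 79.5 and 103 CPM in Dmrt1-/- (log2 difference -0.44, adjusted p = 0.036, under 2-fold). Col4a4 stood at 191, 227 and 176 CPM against 252, 238 and 305 CPM (0.42, adjusted p = 0.041, under 2-fold). Although their starts are 71 bases apart, the differences had opposite signs. Col4a5 stood at 25.8, 42.3 and 28.1 CPM against 54.1, 65.6 and 71.0 CPM (0.99, adjusted p = 0.0025), just inside 2-fold. It passed without the second Dmrt1+/- library (1.23) and without the first Dmrt1-/- library (1.09). Col4a6 stood at 1.7, 3.03 and 2.67 CPM against 4.52, 4.04 and 5.3 CPM (0.91, adjusted p = 0.043). Against wild-type libraries, which held 30.2, 17.7 and 20.3 CPM of Col4a5 and 2.65, 0.848 and 2.13 CPM of Col4a6, these chains passed, with log2 differences of 1.51 and 1.31. Scaled to the somatic markers those differences were -0.15 and -0.33.

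In R111G/+ gonads none of the 6 chains passed both thresholds against Dmrt1+/-. Col4a3 stood at 104, 78.0 and 87.6 CPM and Col4a4 at 246, 178 and 191 CPM, with log2 differences of -0.38 and 0.07. Col4a5 stood at 67.8, 49.2 and 45.1 CPM, above every Dmrt1+/- library, and Col4a6 at 5.18, 5.12 and 3.55 CPM, also above all of them. Their log2 differences were 0.77 and 0.92, and those of Col4a1 and Col4a2 were 0.54 and 0.80, all under 2-fold. Between P3 and P28 the ubiquitous pair fell in Dmrt1+/- gonads by 2.20 (Col4a1) and 1.76 (Col4a2) on the log2 scale, whereas Col4a3 differed by 0.30 and did not pass (adjusted p = 0.26). In the Dmrt1-/- gonads Col4a3 differed by 0.97 between the ages, just inside 2-fold, and passed at 1.03 to 1.05 without the first or the second P28 library, or without the second or the third P3 library. Col4a2 differed by -0.22, and by -1.26 when scaled to the somatic markers.

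**Figure D4:**
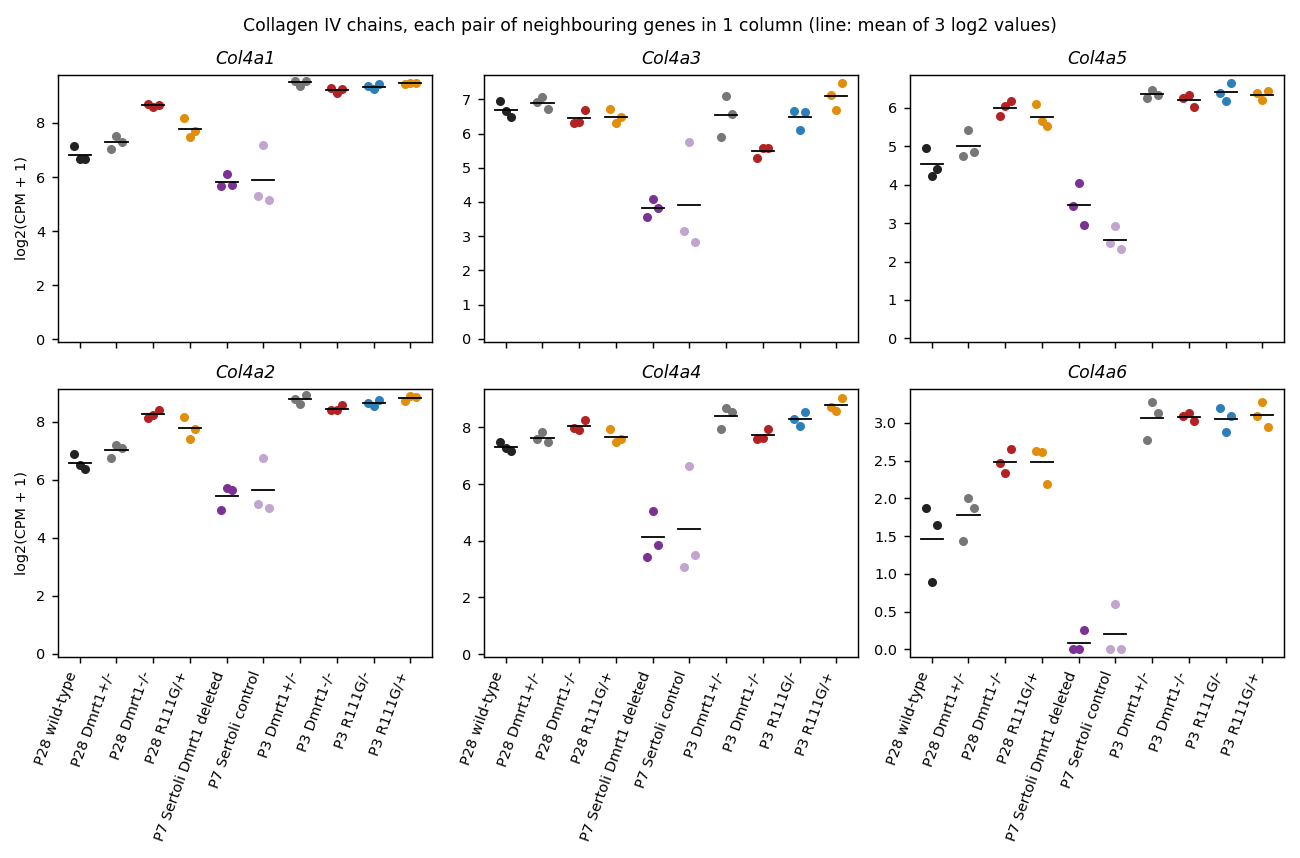
Levels of the 6 collagen IV chains in each library, log2(CPM + 1), with each column holding a head-to-head pair; points are libraries and lines the mean of 3 log2 values. Col4a1 and Col4a2 are highest at P3 and higher in P28 Dmrt1-/- than in P28 Dmrt1+/-, whereas Col4a3 is lower in P3 Dmrt1-/- than in the other P3 groups.

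Deletion of Dmrt1 in Sertoli cells at P7 asked which collagens differ in a somatic cell type that expresses the gene. The collagen XVIII gene Col18a1 was the leading chain of these cells, and the only member to pass in the fit without a replicate block was Col27a1. It stood at 6.41, 6.59 and 1.66 CPM in control and 21.1, 14.0 and 30.5 CPM in deleted cells. The groups did not overlap and the log2 difference was 2.16 ± 0.50 (adjusted p = 0.041). That is 1 of 29 tested members higher and none lower, where 2.56% of all tested genes were higher and 2% lower. At an unadjusted p below 0.05 there were 6 members in edgeR, where 21.4% of all tested genes were below it. DESeq2 called Col27a1, Col18a1 and Col5a2 higher, where it called 3.7% of all tested genes higher. The call of Col27a1 was lost without any 1 library other than the second control, which left no member called. With the replicate number as a block, 2 members were called higher, Col3a1 and Col5a2, and Col27a1 was not. In that fit 2.51% of all tested genes were higher and 2.02% lower. The call of Col27a1 thus depended on leaving out a pairing that was not excluded.

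Col18a1 stood at 275, 299 and 139 CPM in control and 448, 424 and 679 CPM in deleted cells. All deleted libraries were above all controls, but the log2 difference of 1.13 ± 0.31 did not pass (adjusted p = 0.072). Fibrillar chains were low and scattered: Col3a1 stood at 1.28, 30.5 and 2.07 CPM in control and 24.1, 72.6 and 20.8 CPM in deleted cells (1.84, adjusted p = 0.34). The second control library carried most of the Col3a1 of its group and overlapped with the deleted cells. Col1a1 stood at 17.8, 62.6 and 24.2 CPM against 33.8, 123 and 49.7 CPM (0.99, adjusted p = 0.36) and also overlapped. Col4a1 stood at 38.7, 145 and 34.3 CPM against 50.3, 67.5 and 51.5 CPM (-0.36). Of the other collagen IV chains, Col4a5 was the one without overlap, at 4.54, 6.59 and 4.01 CPM in control and 9.95, 15.4 and 6.68 CPM in deleted cells (1.08, adjusted p = 0.14). Col4a6 had too few counts to be tested.

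Without the second control library 7 of 31 tested members were higher in deleted cells, where 3.9% of all tested genes were: Col3a1 (log2 difference 4.52), Col1a2 (3.97), Col15a1 (3.08), Col6a3 (3.07), Col5a2 (2.77), Col12a1 (2.51) and Col27a1 (2.41). This fit kept the second deleted library, which was also the highest of its group in fibroblast markers, at 723 CPM against 385 and 308. It therefore left out the high library of the control group alone, and would break any pairing by replicate number. Fibroblast markers summed to 27.5 to 203 CPM in control and 308 to 723 CPM in deleted cells, endothelial markers to 17.1 to 22.9 and 33.1 to 61.8 CPM, and peritubular myoid markers to 232 to 482 and 72.0 to 128 CPM. Sertoli markers summed to 4264 to 4852 CPM in control and 2776 to 3574 CPM in deleted cells. The marker levels thus differed without overlap in all 4 lists, and their part in the collagen values was not tested. Scaled to the somatic markers no member was called, where 0.164% of all tested genes were higher and 1.13% lower, and the median of all genes was -0.86. Timp3 and Timp2, inhibitors of matrix metalloproteinases, were the genes of the degradation list that rose, with log2 differences of 1.34 and 1.75, and Colgalt1, a galactosyltransferase of collagen, fell by 1.06.

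Collagen levels of the genotypes were compared at P3 as well. In edgeR none of 41 tested members passed between Dmrt1-/- and Dmrt1+/-, where 0.202% of all tested genes were higher and 0.309% lower, and 12 members had an unadjusted p below 0.05, against 8.82% of all tested genes. DESeq2 called Col4a3 lower, where it called 0.461% of all tested genes lower. Col1a1 stood at 2205, 3291 and 2455 CPM in Dmrt1+/- and 2201, 2611 and 2059 CPM in Dmrt1-/-, and Col3a1 at 2360.0, 3058 and 1955 CPM against 2348, 2855 and 1877 CPM. Both chains overlapped widely between the genotypes. The median log2 difference over the members was -0.11.

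Col4a3 had the largest difference at P3, with 58.6, 137 and 94.7 CPM in Dmrt1+/- and 38.1, 46.8 and 47.1 CPM in Dmrt1-/-. All null libraries were below all others at P3, but the log2 difference of -1.13 ± 0.27 did not pass (adjusted p = 0.094). Without the first Dmrt1+/- library, the lowest of its group, it passed at -1.40. Col4a4 stood at 246, 409 and 369.8 CPM against 192, 195 and 247 CPM and overlapped between the genotypes. Col4a1 stood at 757, 663 and 747 CPM in Dmrt1+/- and 624, 544 and 607 CPM in Dmrt1-/-, and Col4a2 at 439, 392 and 481 CPM against 334, 332 and 379 CPM. Both were lower in every null library, and neither passed. Col4a5 and Col4a6 overlapped.

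The R111G genotypes at P3 were compared with Dmrt1+/- in the same way. In edgeR none of 41 members passed in R111G/+, where 0.0821% of all tested genes were higher and 0.0505% lower. There 4 members had an unadjusted p below 0.05, against 5.76% of all tested genes. The member with the largest difference was Col9a2, a collagen IX chain, at 19.3, 14.5 and 26.2 CPM in Dmrt1+/- and 9.55, 7.55 and 10.8 CPM in R111G/+. These libraries did not overlap, and the log2 difference of -1.12 was not past the threshold in edgeR (adjusted p = 0.13), while DESeq2 called it at -1.11. In R111G/- none passed in edgeR, where 0.0379% of all tested genes were higher and 0.158% lower. At an unadjusted p below 0.05 there were 5 members, against 6.75% of all tested genes, and DESeq2 called 0. Col27a1 stood at 21.4, 20.1 and 18.3 CPM in P3 R111G/+ and 23.4, 21.2 and 28.9 CPM in P3 Dmrt1+/-. The test of the difference between the ages for this chain is given with the interaction terms.

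Collagen levels were then compared between P3 and P28 within a genotype. Age and any separate handling of the ages cannot be told apart in this design. In Dmrt1+/- gonads most collagen genes fell with age, and 6 of 43 tested members rose and 26 fell, where 36.6% of all tested genes rose and 18.9% fell. The median log2 difference was -1.58 over the members and 0.27 over all genes. Col9a2 fell furthest, from 19.3, 14.5 and 26.2 CPM to 0, 0.112 and 0.534 CPM (log2 difference -6.38, and -8.28 without the third P28 Dmrt1+/- library, which left the count at 6 and 26). The fall rests on 7 counts at P28. Without that library 37.1% of all tested genes rose and 19.6% fell. Col5a2 fell from 224, 276 and 219 CPM to the 7.56, 10.3 and 4.98 CPM given above (-4.98), and Col1a1 and Col3a1 by 4.10 and 3.23 on the log2 scale. Among the members that rose, Col2a1 went from 0.85, 1.81 and 1.71 CPM to 30.5, 17.4 and 22.0 CPM (4.00), and Col20a1 from 3.52, 2.46 and 3.03 CPM to 29.7, 21.1 and 11.5 CPM (2.79). Col19a1 had no count at P3 and 107 counts at P28, which is at least 23.2-fold higher over the summed libraries against a floor of 3 counts. Of the collagen-modifying genes 13 fell and none rose, among them P3h3, a prolyl 3-hydroxylase (log2 difference -3.49). The cross-linking oxidase Lox fell by 4.43. Scaled to the somatic markers, 8 members rose and 22 fell, where 45.8% of all tested genes rose and 10.4% fell. Spermatid markers summed to 0.607 to 1.81 CPM at P3 and 4671 to 21697 CPM at P28 in Dmrt1+/-. In Dmrt1-/- they summed to 1.62 to 1.71 CPM at P3 and 29.4 to 35.7 CPM at P28. Their part in the age differences was not tested.

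In Dmrt1-/- gonads Col3a1 did not pass the test between the ages and Col1a1 fell less far than in Dmrt1+/-. Of 43 members 6 rose and 13 fell between P3 and P28, where 10.8% of all tested genes rose and 12.4% fell. Col3a1 was at 2348, 2855 and 1877 CPM at P3 and at 1706, 1699 and 1909.5 CPM at P28. The ages overlapped and the log2 difference was -0.43 (adjusted p = 0.2). Col1a1 fell by 1.29 on the log2 scale, and Col4a1 differed by -0.58. Col8a1 rose from 2.7, 3.24 and 3.21 CPM to 20.3, 9.14 and 17.8 CPM (2.34). Col22a1, a FACIT chain of tissue junctions, rose from 3.88, 0.998 and 2.03 CPM to 11.7, 9.78 and 7.95 CPM (2.06), and Col6a5 differed by 1.71 with 2.94, 2 and 2.03 CPM at P3 and 10.3, 2.55 and 10.2 CPM at P28. Col23a1, a transmembrane chain, fell from 147, 132 and 124 CPM to 6.95, 4.04 and 9.23 CPM (-4.32), without overlap, and Col2a1 went from 72 counts to 1 and Col9a1 from 34 to 1. Scaled to the somatic markers, 2 members rose and 30 fell, where 4.21% of all tested genes rose and 42.5% fell, and Col3a1 passed with -1.45. The median log2 difference over the members was then -1.68, against -1.01 in Dmrt1+/- at the same scaling.

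In R111G/+ gonads 6 of 43 members were higher and 30 lower at P28, where 28.1% of all tested genes were higher and 13.5% lower. Col5a2 fell from 245, 236 and 262 CPM at P3 to 15.3, 9.19 and 7.86 CPM at P28 (log2 difference -4.52), and Col12a1 from 24.1, 42.5 and 33.8 CPM to 1.53, 0.912 and 1.62 CPM (-4.62). Both were separated widely between the ages. Col9a2 had the largest fall (-4.93), from 9.55, 7.55 and 10.8 CPM to 0.192, 0.351 and 0.308 CPM. Col1a1 and Col3a1 fell by 3.44 and 2.12. Col2a1 rose from 1.78, 0.532 and 1.53 CPM to 2.88, 7.02 and 10.5 CPM (2.42), Col20a1 from 1.68, 2.34 and 1.42 CPM to 4.6, 8 and 9.79 CPM (2.05), and Col28a1 from 0.944, 0.532 and 0.437 CPM to 2.11, 1.75 and 1.85 CPM (1.56). Col19a1 had 0 counts at P3 and 22 at P28, at least 5.70-fold higher. Scaled to the somatic markers, 6 members were higher and 27 lower, where 30.3% of all tested genes were higher and 10.5% lower.

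Whether the genotype effect differed between the ages was tested with an interaction term in the fit over both ages. The Dmrt1-/- effect differed in 30 of 43 members, with 22 more positive and 8 more negative at P28, where 18% and 23.7% of all tested genes did so. The fibrillar class contributed 8 and 3 of these, and all 4 collagen VI chains that rose at P28 were among the 22. Col1a1 had a difference of effects of 2.81 on the log2 scale, Col3a1 2.80 and Col4a1 1.63. Without the third P28 Dmrt1+/- library 21 members were more positive and 9 more negative, where 19.2% and 24% of all tested genes were so. Scaled to the somatic markers, 7 members were more positive and 14 more negative, where 2.36% and 53.7% of all tested genes were so, and the difference of Col4a1 was 0.04. The R111G/+ effect differed in 12 of 43 members, with 4 more positive and 8 more negative, where 4.92% and 9.69% of all tested genes did so. Of these 8, 6 were FACIT chains, and Col27a1 had a difference of -2.49 and Col8a1 of -2.92. Without the first P28 Dmrt1+/- library, or without the first P28 R111G/+ library, only 2 members were more positive, where 2.32% and 2.74% of all tested genes were so. Without the third P28 Dmrt1+/- library 6 were more positive and 10 more negative, where 6.41% and 11.7% of all tested genes were so. Scaled by library size alone, 8 were more positive and 7 more negative, where 10.8% and 6.6% of all tested genes were so. Scaled to the somatic markers the counts were 0 and 8, where 0.706% and 7.63% of all tested genes were so.

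Contacts between DNA sites had been mapped by Hi-C in P7 Dmrt1-/- Sertoli cells as a list of 4291 interactions between anchors of 10 kb, from 1 condition. An anchor lay within 10 kb of 23 of the 44 collagen genes (52.3%), against 26.9% of 21897 protein-coding genes. Collagen genes are long, and among genes of at least 100 kb the shares were 65.4% (17 of 26) and 56.9%. The list holds contacts inside collagen clusters. On chromosome 9, where Col6a6, Col6a5 and Col6a4 lie in a row, the anchor that starts at 105690001 in Col6a6 met that at 105850001 at Col6a5, 160 kb away, and the anchor at 105860001 met that at 106030001 at Col6a4, 170 kb away. On chromosome 8 anchors at 11250001 and 11390001 joined Col4a1 and Col4a2 over 140 kb. Col23a1 held both ends of a contact spanning 240 kb. For Col13a1 a contact spanning 150 kb had 1 end in the gene and the other outside it, within 10 kb. The interactions were given in one condition only and no comparison between genotypes was made with them.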

How the data were processed

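RNA was measured in 30 libraries of 10 groups. Gene counts were deposited by the authors as 1 table of whole-number counts per gene. Per the labels and the study's methods, reads were trimmed with Trim Galore 0.6.0 and cutadapt 1.18, aligned to GRCm38 with STAR 2.7.2a and counted with RSubread on GENCODE annotation. All members and gene lists were chosen with earlier results of these data known. Rows were matched by symbol, and positions came from the Ensembl IDs, of which 55141 (99.5%) matched the annotation used here. CPM values used TMM library sizes over all 30 libraries, and exon length gave values per kilobase. Genes were filtered with filterByExpr and tested with edgeR 4.0.16 (quasi-likelihood F test, R 4.3.3), separately for P28, P7 and P3 and in a joint fit for age. A gene was called at an adjusted p below 0.05 and more than 2-fold. Alternatives were DESeq2 1.42.0, other scalings, no filter, a replicate block and leaving out each library. In simulated counts 100 genes were changed 3-fold and 100 were changed 6-fold, all averaging above 1 CPM, with every other gene unchanged. The P28 design recovered 66 and 92, P7 62 and 89, and P3 75 and 95, with 2, 8 and 6 other genes called. Recovery of chains below 1 CPM, or with as many genes changed as in P28 Dmrt1-/-, was not simulated. Values per library are given for Col1a1, Col3a1, Col4a1, the other collagen IV chains, and the 3 called members with the largest change in each direction whose higher group averaged at least 1 CPM. Further members are named as the extremes of a class or as exceptions to it, and some (Col1a2, Col18a1, Col12a1 and Col11a2) were chosen after their values were seen. Genes of other lists are those with the smallest adjusted p. Counting intervals are 95% and cover counting error only. The labels do not say that replicate numbers pair samples, and the main fits held no block. At P7 the correlation of same-numbered libraries reached 0.361, against up to 0.094 for other pairs, so pairing there was not excluded. The Hi-C list was deposited as pairs of 10 kb anchors called by the authors in 1 condition, with no score.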

Additional observations from a re-analysis of the deposited data

Results flagged for a closer look

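The genotype effects differed between P3 and P28 by the interaction term of the edgeR fit over both ages. For Dmrt1-/- against Dmrt1+/-, 30 members differed. The effect at P28 minus that at P3, on the log2 scale, was 3.24 for Col5a2, 3.14 for Col6a6, 3.09 for Col9a2, 2.81 for Col1a1, 2.8 for Col3a1, 1.63 for Col4a1, 1.54 for Col4a2, 1.1 for Col4a5 and 1.09 for Col4a4. It was -9.89 for Col2a1, -8.62 for Col19a1 and -4.97 for Col9a1. The values of Col2a1 and Col9a1 rest on 1 count in P28 Dmrt1-/- and that of Col19a1 on 0 counts in P3 Dmrt1+/-, so their size depends on the prior count of the fit. That of Col9a2 rests on 7 counts in P28 Dmrt1+/-, ranged from 2.49 to 5 when 1 library was left out, and was 1.54 (adjusted p = 0.11) when scaled to the somatic markers.

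For R111G/+ against Dmrt1+/-, 12 members differed. The effect at P28 minus that at P3 was 1.45 for Col13a1, 1.22 for Col15a1, 1.17 for Col1a2 and 1.11 for Col3a1, and -2.92 for Col8a1, -2.49 for Col27a1 and -2.39 for Col9a1. Both comparisons share the Dmrt1+/- libraries of each age.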

How the results depend on the processing

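Scaling to the somatic markers changed most. It gave 8 higher and 14 lower members in P28 Dmrt1-/- against Dmrt1+/-, 10 and 18 against wild-type, 0 and 19 in R111G/+ against Dmrt1+/-, 0 higher at P7, 2 and 30 between the ages in Dmrt1-/-, 7 and 14 for the difference of the Dmrt1-/- effects and 0 more positive for that of the R111G/+ effects. Signs turned for Col4a2 (-0.09) in Dmrt1-/- against Dmrt1+/-, Col4a5 (-0.15) and Col4a6 (-0.33) against wild-type, Col3a1 (-0.05) in R111G/+, and Col4a2 (-0.06), Col4a3 (-1.03), Col4a4 (-0.58) and Col4a5 (-0.5) in the difference of the Dmrt1-/- effects. By its construction this scaling makes a trimmed mean of the log ratios of these markers about equal between libraries, and not their sums. Library size alone gave 8 higher members in P28 R111G/+ and 8 more positive for its difference of effects, where 13.3% and 10.8% of all tested genes were so. It also gave summed collagen levels of 1188 CPM in P28 wild-type and 12610 CPM in P3 R111G/+ gonads. Without the filter on low counts 7 members were higher in R111G/+ against Dmrt1-/-, 2 in Dmrt1+/- against wild-type, 7 higher and 3 lower at P7, 1 higher and 1 lower in P3 Dmrt1-/- and 1 lower in P3 R111G/+. The shares of all tested genes, in the same order, were 20.3%, 0.665%, 2.32% and 2.1%, 0.417% and 0.532%, and 0.268%. DESeq2 gave 1 higher in Dmrt1+/- against wild-type, 3 higher at P7, 1 lower in P3 Dmrt1-/- and 1 lower in P3 R111G/+. The shares of all tested genes there were 0.0907%, 3.7%, 0.461% and 0.246%. The cause of these changes was not tested.

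Leaving out 1 library gave from 1 to 5 higher members in P28 R111G/+ against Dmrt1+/-, 3 to 7 against Dmrt1-/-, 0 to 7 at P7, 0 to 1 lower in P3 Dmrt1-/- and 2 to 6 more positive for the difference of the R111G/+ effects. The shares of all tested genes, in the same order, ran from 3.64% to 8.34%, 24.1% to 32.1%, 0.82% to 3.9%, 0.148% to 0.358% and 2.32% to 6.41%. Every other count stayed within 1.5 times its value. A fit with the replicate number as a block gave 2 higher members at P7 (Col3a1 2.63 and Col5a2 1.94, and not Col27a1), 1 lower in P3 R111G/+ and 3 higher between the ages in R111G/+, and no other count moved by over 1.5 times. Of all tested genes 2.51%, 0.0316% and 22.7% were called in the same order. Correlations of same-numbered libraries ran from -0.006 to 0.061 for P28 Dmrt1-/- against Dmrt1+/-, and those of other pairs from -0.125 to 0.068. At P7 the same-numbered values ran from -0.010 to 0.361 and the others from -0.279 to 0.094. The highest same-numbered value at P7 lay above every other pair, so pairing by number was neither shown nor excluded there. With 3 libraries per group, changes of low chains such as Col10a1, with 2 counts in all, were not detectable at this depth.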
